A study of Mus musculus with 54 samples.

Results

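The 8 transcription factors described here, Hnf4a, Hnf4g, Pax2, Pax8, Maf, Tfap2b, Gata3 and Esrrb, were listed by name as regulators of nephron identity, and are 8 of the 33126 genes listed in any of the deposited tables. The tables hold 54 libraries of adult mouse kidney in 18 groups of 3. Of these, 39 are droplet single-cell or single-nucleus libraries and 15 are bulk RNA-seq. Male C57BL/6J mice (AFAPIL.1DEL, 1 litter, 19 weeks old) gave kidney suspensions dissociated with a cold-active protease or with warm enzymes, which were profiled fresh, after cryopreservation and after methanol fixation, and as bulk RNA. Untreated Balb/c males (1 litter, 18 weeks) and Balb/c females (former breeders, 15 weeks) gave cold-dissociated cells and nuclei of flash-frozen kidneys, the females also cryopreserved cells and bulk RNA of suspensions and of intact kidney, and the males bulk RNA of intact kidney. Nuclei were washed 3 times at 500 g in both sexes, and in females also once at 2000 g or on a sucrose cushion. The washed nuclei were sorted on DAPI, a DNA dye, and the sucrose nuclei were not. Male Balb/c libraries used chemistry version 2 and female ones version 3, so that sex, age and chemistry cannot be told apart, and cells came from fresh but nuclei from flash-frozen tissue.

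Transcription factors of this kind bind DNA and set which genes a nephron segment uses. The nephron epithelium arises from progenitors that express paired-box factors, and distinct factors then mark its parts: hepatocyte nuclear factors the proximal tubule, AP-2 factors the distal tubule, and GATA factors the collecting duct. Nuclei carry unspliced transcripts whose introns are still present, whereas whole cells hold mostly spliced cytoplasmic mRNA. The deposited counts follow that difference, because reads on exons alone were counted for cells and reads on exons and introns for nuclei.

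In GRCm38 (GENCODE vM21 annotation) Hnf4a lies at chr2:163506808-163572910 on the plus strand, Hnf4g at chr3:3508030-3658052 (plus), Pax2 at chr19:44756045-44837871 (plus) and Pax8 at chr2:24420560-24475599 (minus). Maf lies at chr8:115682942-115707794 (minus), Tfap2b at chr1:19208914-19238576 (plus), Gata3 at chr2:9857078-9890034 (minus) and Esrrb at chr12:86361117-86521628 (plus). The longest spans are those of Esrrb, 160.5 kb, and Hnf4g, 150.0 kb, of which introns make up 96.2% and 98.2%. Maf has the shortest span, 24.9 kb, and the lowest share of intron, 66.8%. Antisense genes overlap Hnf4a (Hnf4aos), Pax2 (Gm20395 and 1700039E22Rik), Pax8 (Gm13415), Maf (Gm15655) and Gata3 (Gm13256 and 4930412O13Rik), and the strand used in counting is not given in the sources used here, so their reads may not be separable from those of the members.

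Barcodes were clustered within each strain, sex and preparation on genes other than the 8 members, and clusters were named from fixed marker lists. A class such as proximal tubule therefore stands for the proximal tubule-like clusters. Depth differed: median UMIs per barcode were 343 to 688 in male cells, 946 to 1025 in male nuclei, 2293 to 2990.5 in female cells and 3274 to 3893.5 in female nuclei, and bulk libraries held 2326998 to 31093949 reads. Of these 10x groups only the female cells list mitochondrial genes, and without them their medians were 1535.5 to 2007. Levels are given as CPM, the counts of a gene scaled to a common total, among the non-mitochondrial UMIs of that class in that library. Any pair of libraries shared at most 2.05% of the barcodes of the smaller one. By its methods the study removed genes found in fewer than 10 barcodes of a library, although 0 to 852 genes a library stood in 1 to 9 of the deposited barcodes. A gene listed at 0 in a whole library is therefore called removed, without knowing its count. This holds for Hnf4g and Esrrb in male Balb/c cell libraries 1 and 3 and for no member in the female cells or nuclei, which are therefore described first. In cold-dissociated C57BL/6J cells it also holds for Hnf4g and Esrrb in all 3 cryopreserved libraries. There it holds as well for Pax2 in 1 library and Hnf4a in at least 1. Among the methanol libraries it holds for Hnf4g in all 3.

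Hnf4a, a nuclear receptor needed for proximal tubule maturation, marked the proximal tubule. In female kidney its level there was 221, 224 and 249.7 CPM in the 3 cell libraries and 373, 404 and 382 CPM in the 3 nuclei libraries. In the thick ascending limb the same libraries held 9.29, 27.9 and 11.8 CPM in cells and 10.2, 8.43 and 8.90 CPM in nuclei, so the classes did not overlap. Hnf4g, its paralog, gave 18.4, 19.4 and 13.8 CPM in proximal tubule cells and 654, 723 and 788 CPM in proximal tubule nuclei. Hnf4a was thus above Hnf4g in every cell library and below it in every nuclei library of that class, counted per UMI and not per length.

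Maf, a basic leucine zipper factor of proximal tubule and macrophages, stood at 712, 688 and 660.4 CPM in female proximal tubule cells and at 531, 482 and 519 CPM in nuclei. Within the proximal tubule it separated the segments: clusters of the first part (S1) gave 1045, 939 and 937 CPM in cells against 114, 149 and 177 CPM in the straight last part (S3). S1 exceeded S3 in 3 of 3 libraries of every group where both were found, by 2.06 to 9.17 times. Esrrb, at far lower levels, was also higher in S1 in 3 of 3 libraries of each nuclei group, by 5.26 to 16.2 times in female nuclei and 1.67 to 6.00 times in male nuclei. Pax8 and Hnf4g ran the other way in nuclei, with S1 to S3 ratios of 0.566 to 0.822 and 0.684 to 0.952, lower in S1 in 3 of 3 libraries of each nuclei group. In cells these directions did not hold throughout, with Pax8 and Hnf4g higher in S1 in 2 of 3 warm fresh C57BL/6J libraries. Esrrb was higher in S1 in 3 of 3 female fresh cell and 3 of 3 cold methanol libraries. It was so in 1 of 3 cold and 0 of 3 warm fresh C57BL/6J libraries, on only 3 and 7 UMIs in proximal tubule cells together. Hnf4a held 365, 382 and 355 CPM in S1 and 381, 434 and 413 CPM in S3 of the female 3x500g nuclei, so that it was lower in S1 there in 3 of 3 libraries, as it was at 1x2000g (0.764 to 0.93, against 0.77 to 0.952 for Hnf4g). In male nuclei Hnf4a was higher in S1 in 2 of 3 libraries.

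Pax2 and Pax8, paired-box factors of the developing and adult nephron and duct, were spread over the whole tubule with peaks in the thin limb of Henle and in collecting duct principal cells. In female nuclei Pax2 reached 1399.5, 1319 and 1399 CPM in the thin limb, 1028, 1207 and 1293 CPM in principal cells and 166, 165 and 167 CPM in the proximal tubule. Pax8 reached 1195, 1223 and 1104 CPM, 764, 749.6 and 848 CPM, and 392, 329.8 and 377 CPM in the same classes. The order of the 3 classes was the same for both genes in every library, with a wider gap to the proximal tubule for Pax2.

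Tfap2b, an AP-2 factor of the distal nephron, peaked in the thick ascending limb, where female nuclei held 456, 732 and 596 CPM. Distal convoluted tubule followed at 309.6, 528 and 466 CPM and connecting tubule at 297, 492 and 465 CPM, and these 3 classes overlapped. Esrrb, an orphan nuclear receptor best known from pluripotent cells, shared the first pair of classes, at 908, 754 and 870.3 CPM in distal convoluted tubule and 886, 545 and 705 CPM in the thick ascending limb. It stood at 18.04, 19.9 and 18.3 CPM in the proximal tubule. Gata3, a zinc finger factor of the duct lineage, T cells and mesangium, gave 389, 364 and 369 CPM in principal cells, 182, 189 and 154 CPM in connecting tubule, 145, 135 and 144 CPM in intercalated cells and 104, 123 and 109 CPM in distal convoluted tubule. Its level stepped down from principal cells along these tubule classes. Urothelium, a small class present in nuclei, held 427, 555 and 372 CPM, which overlapped principal cells. Connecting tubule stood above intercalated cells in every library.

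**Figure D1:**
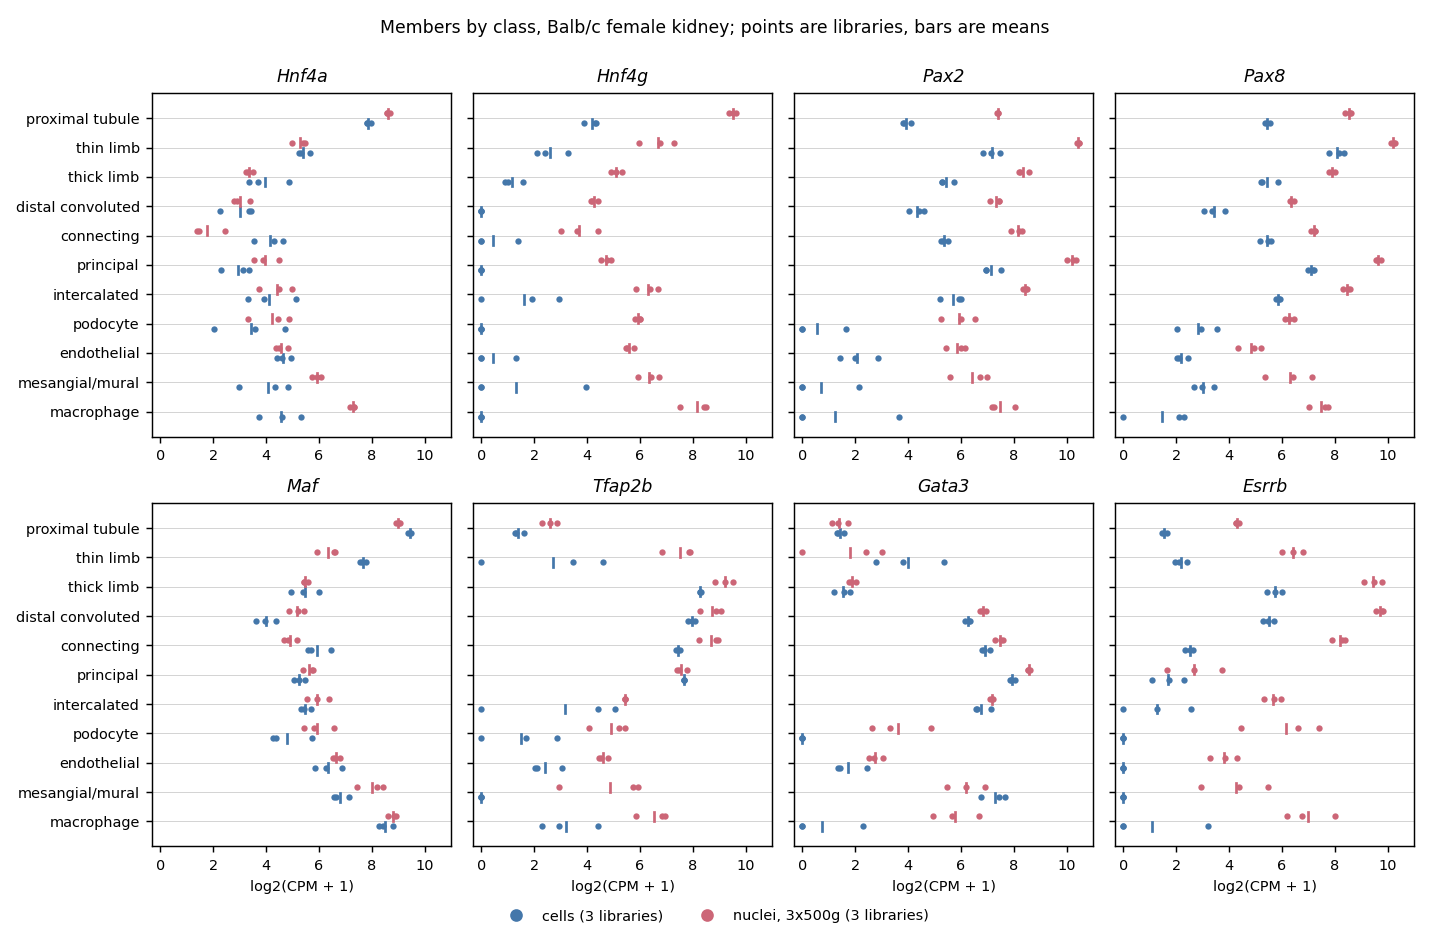
Level of each transcription factor, as log2(CPM + 1) on the x axis, in the 11 classes held by both the cells (blue) and the 3x500g nuclei (red) of Balb/c female kidney. Points are libraries and bars are means of 3. Pax2 and Pax8 nuclei points lie right of the cell points in every class, Esrrb and Hnf4g reach their highest values in nuclei, and Hnf4a and Maf points of cells and nuclei lie close together in the proximal tubule.

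Nuclei were compared with cells to ask which factors gained in detection when nuclei were profiled. In female kidney 70 of the 88 pairs of a member and a class passed the filter on low counts. Of these, 49 were higher and 8 lower in nuclei by edgeR's quasi-likelihood test (Benjamini-Hochberg adjusted within the class), against 41.9% higher and 39.1% lower over all 91305 pairs of gene and class tested. Pax2, Pax8, Hnf4g and Esrrb were called higher in every class where they were tested, 10, 10, 10 and 7 classes. Of the Hnf4g pairs, 4 had no UMI in cells and passed the filter through the nuclei alone, so those calls carry no weight. Other pairs had few UMIs in cells, such as 1 of Hnf4g in endothelium and 2 of Pax8 in macrophages. They too passed through the nuclei, and their calls carry little weight. Tfap2b was higher in 7 and lower in 1 of 9, Gata3 higher in 1 and lower in 1 of 6, Maf higher in 3 and lower in 5 of 11, and Hnf4a higher in 1 and lower in 1 of 7. The median log2 fold change over the tested pairs was 2.22, against 0.12 over all genes, and ran from 4.30 for Esrrb and 4.27 for Hnf4g, with pairs at 0 in cells placed at their bound, to -0.30 for Hnf4a. Scaling to total UMIs in place of TMM shifted the median log2 fold change of all genes by 0.15 to 1.12 over the female classes. It gave 54 higher and 5 lower pairs, and the shares of all genes on this scaling are not given here. With TMM and without cell library 2, 5 were lower.

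In male kidney 49 of 80 pairs passed the filter, and 38 were higher and 3 lower in nuclei, against 44.1% and 30.0% of 46681 pairs over all genes. Of these, 9 pairs belong to Hnf4g or Esrrb, whose cell level rests on 1 library, and 5 had no UMI in cells and carry no weight. Of the 40 pairs of members kept in every library, 29 were higher and 3 lower. Among all genes kept in every library these shares were 38.4% and 33.1% of 40966 pairs. Pax2 and Pax8 were called higher in all 8 classes tested. Male endothelial cells held no UMI of Pax2, so that call carries no weight. They held 2 UMIs of Pax8, so that call carries little. Calls were higher for Maf in 5 of 7, Tfap2b in 5 of 7 and Hnf4a in 3 of 6, and lower for Gata3 in 1 of 4, intercalated cells (-0.58), a call lost on total UMIs, with DESeq2, with no filter, without doublets and without nuclei library 1 or 3. No member passed the filter in male macrophages or podocytes. The male median was 2.27 with bounds and the kept library used, against 0.54 over all genes. Total UMI scaling gave 41 higher and 0 lower pairs, again without the shares of all genes on that scaling. The nuclei effect itself differed between the sexes in 15 of 68 pairs tested by an interaction term, against 21.3% of all genes, a share near that background, and in 8 to 13 with 1 library left out (8 without male nuclei 3, and 9 without male cells 2, male nuclei 1 or female nuclei 2).

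Among the proximal tubule factors the paralogs diverged. Hnf4g rose by 4.60 ± 0.16 (SE, log2) in female proximal tubule nuclei (edgeR adjusted p = 2.6e-10, n = 3 and 3), from 416 UMIs in cells to 34087 in nuclei. Hnf4a, from the same class and libraries, gave -0.03 ± 0.09 with TMM scaling (edgeR adjusted p = 0.79) and 0.73 when scaled to total UMIs (edgeR adjusted p = 1.4e-05), so its direction depended on the scaling while that of Hnf4g did not. In male proximal tubule Hnf4a stood at 286, 281 and 346 CPM in cells and 271, 297 and 329.9 CPM in nuclei. It was called lower with TMM (-0.48 ± 0.13, edgeR adjusted p = 0.0046) and not on total UMIs (-0.01, edgeR adjusted p = 0.94). Male Hnf4g nuclei held 476, 407 and 396 CPM, and the kept cell library 9.27 CPM from 13 UMIs, a ratio of 46.3 (95% exact interval of counting error 27.1 to 87.0).

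Beyond the proximal tubule Hnf4g was also found in nuclei of classes whose cells held none. It had no UMI in female principal, distal convoluted tubule, macrophage or podocyte cells, and nuclei were at least 19.4-fold, 11.3-fold, 77.6-fold and 25.8-fold higher against 3 counts over the cell libraries of the class together, the limit that a count of 0 allows. The lower ends of the counting intervals were 15.4, 8.94, 62.3 and 20.02. Endothelial nuclei held 53.6, 42.8 and 44.3 CPM against a single UMI in cells, a ratio of 89.5 (15.9 to 3556). In the same nuclei the summed level of 14 proximal tubule markers was 1491 to 1860 CPM in the endothelium (cells 1972 to 4461) and 6571 to 9599 CPM in macrophages (cells 2122 to 4322), with all 14 detected in every library. The part of RNA from proximal tubule in these levels was not tested.

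Hnf4a moved in few other classes. Female macrophages rose by 1.61 ± 0.37 (edgeR adjusted p = 0.00045), from 12.3, 38.8 and 23.1 CPM to 157, 159.7 and 143 CPM, beside the marker levels just given. Female thick ascending limb fell by 1.26 on the log2 scale (SE 0.33, edgeR adjusted p = 0.0021). The libraries overlapped, and the change was -0.54 without cell library 2 (edgeR adjusted p = 0.16) and -0.33 without doublets (edgeR adjusted p = 0.44), while its summed proximal tubule markers were 1152 to 2496 CPM in cells and 698 to 938 CPM in nuclei. In male kidney Hnf4a rose in principal cells, connecting tubule and endothelium. The first of these went from 0, 15.8 and 0 CPM to 63.2, 71.2 and 82.4 CPM, a ratio of 9.91 (2.62 to 83.9) on 2 UMIs in cells. The summed proximal tubule markers of male principal cells were 2069 to 3656 CPM in cells and 5869 to 8061 CPM in nuclei, and of endothelium 5187 to 6700 and 11696 to 13520 CPM, and their part in the result was not tested.

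Maf was the member most often called lower in female nuclei. It fell by 1.19 in female proximal tubule (SE 0.11, edgeR adjusted p = 9.4e-07) and by 0.69 in male (SE 0.13, edgeR adjusted p = 0.00034), and on total UMIs by 0.43 (edgeR adjusted p = 0.001) and 0.22 (edgeR adjusted p = 0.12). Female thin limb and connecting tubule fell by 1.52 and 1.53 on the log2 scale. The other female calls were less steady. Macrophage was called lower (-0.72) but gave 0.40 on total UMIs. Thick ascending limb was called lower (-0.46) but gave 0.32 without doublets. Podocyte was called higher (0.99) but gave -1.51 at a coarser clustering. Distal convoluted tubule (0.84) and mesangial and mural cells (0.75) were also called higher, and these calls were lost in 2 and 5 alternatives. In male nuclei Maf rose in principal cells (143, 154 and 96.2 CPM from 22.5, 15.8 and 31.9 CPM), connecting tubule, thick ascending limb, intercalated cells and endothelium.

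Both paired-box factors rose in nuclei of each tubule class. Pax2 went from 121, 123 and 181 CPM to 1028, 1207 and 1293 CPM in female principal cells (2.78 ± 0.16, edgeR adjusted p = 6.8e-14) and from 13.4, 13.2 and 16.3 CPM to 166, 165 and 167 CPM in proximal tubule (2.78 ± 0.10, edgeR adjusted p = 3.2e-10). As ratios of CPM these were 8.68 and 11.8, and in males 8.06 in principal cells and 15.9 in proximal tubule. Male values were 67.5, 111 and 79.8 CPM against 752, 664 and 756 CPM in principal cells (3.00 ± 0.28, edgeR adjusted p = 2.3e-11). Male endothelial nuclei held 96.2, 133 and 124 CPM, but the cells held no UMI of Pax2, so this pair carries no weight. Its bound against 3 counts was 8.94-fold, and the lower end of the counting interval was 7.19. Pax8 rose by 2.21 ± 0.14 in female principal cells (edgeR adjusted p = 7.9e-13), by 2.34 in proximal tubule and by 1.38 in connecting tubule, and by 2.88 ± 0.19 in male proximal tubule (edgeR adjusted p = 2e-08). In female macrophages 2 UMIs of Pax8 in cells gave a ratio of 71.6 (19.2 to 601).

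Of the distal factors Esrrb gained most. In female connecting tubule it went from 4.05, 4.81 and 5.26 CPM in cells to 331, 237 and 309.6 CPM in nuclei (5.51 ± 0.25, edgeR adjusted p = 5e-22). In distal convoluted tubule it went from 51.1, 38.0 and 43.6 CPM to 908, 754 and 870.3 CPM (3.98 ± 0.16, edgeR adjusted p = 9.7e-17), and in thick ascending limb by 3.41 ± 0.19 (edgeR adjusted p = 3.8e-11). Connecting tubule cells stood above proximal tubule cells (1.89, 1.72 and 2.12 CPM) without overlap but at a low level, whereas connecting tubule nuclei stood far above proximal tubule nuclei. The class made up 9.58% of female cells and 1.94% of female nuclei (1624 and 450 barcodes), and any part of its make-up in the result was not tested. Male connecting tubule nuclei held far less Esrrb, at 29.3, 23.2 and 28.9 CPM. In male kidney the kept cell library held 2 UMIs in distal convoluted tubule and 7 in thick ascending limb, with ratios of 15.1 (4.16 to 125) and 5.30 (2.56 to 13.2).

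Tfap2b and Gata3 changed by less than Esrrb in the classes where they are high. Tfap2b rose by 0.58 ± 0.13 in female thick ascending limb (edgeR adjusted p = 0.00062), from 305, 308 and 315 CPM to 456, 732 and 596 CPM, and by 0.92 in male. In female connecting tubule it rose by 0.83 ± 0.14 (edgeR adjusted p = 2.1e-06), from 171, 164 and 183 CPM to 297, 492 and 465 CPM. Its gain was larger in thin limb, from 10.0, 23.4 and 0 CPM to 112, 235 and 231 CPM (3.63 ± 0.44, edgeR adjusted p = 1.4e-07). In female principal cells it was called lower (-0.39), with 0.01 at the coarser clustering and -0.08 on total UMIs. Gata3 rose by 0.34 ± 0.13 in female principal cells (edgeR adjusted p = 0.02), from 233, 230.0 and 259 CPM to 389, 364 and 369 CPM. That call was lost with DESeq2 (adjusted p = 0.068), at the coarser clustering (0.07, edgeR adjusted p = 0.64) and without cell library 1 or 2. It fell by 1.47 in mesangial and mural cells (SE 0.34, edgeR adjusted p = 0.00046). In male principal cells the groups overlapped, at 157, 293 and 399 CPM in cells and 303, 301 and 389 CPM in nuclei, and no Gata3 pair was called higher.

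**Figure D2:**
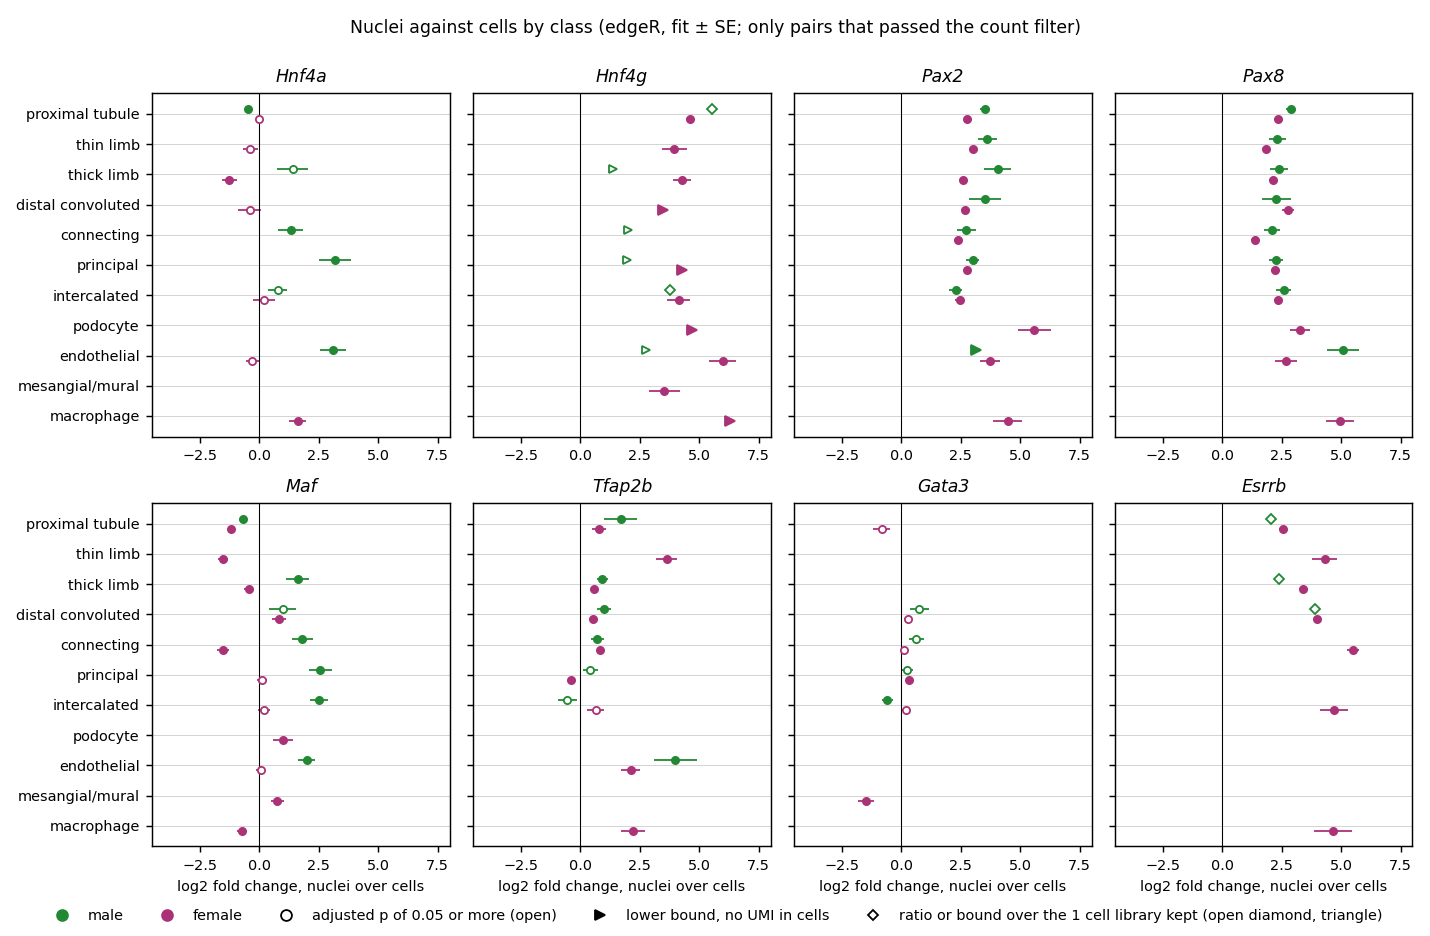
Log2 fold change of nuclei over cells for each member and class, male and female Balb/c kidney. Filled points passed the edgeR test (adjusted p under 0.05), open circles did not, triangles are lower bounds where cells held no UMI, and open diamonds and open triangles are ratios or bounds over the 1 male cell library that kept the gene. The pairs of Hnf4g, Pax2, Pax8 and Esrrb that passed the test lie above 0; female Hnf4a in proximal tubule, at -0.03 with TMM scaling, is 0.73 on total UMIs.

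Detection was compared at equal depth by computing, for each class, the share of barcodes expected to hold a UMI after thinning to 500 UMIs per barcode. An exact permutation test of 3 against 3 libraries cannot go below p = 0.1. In females all 3 nuclei libraries were above all 3 cell libraries in 64 of 88 pairs and below in 9, against 36.6% and 24.3% of all genes. The 64 include pairs with no UMI in cells, named below, which carry no weight. In males the counts were 33 and 1 of 48, against 33.3% and 12.6%. Of the 33, 6 were of Hnf4g and 4 of Esrrb, both removed from cell libraries 1 and 3, so these carry no weight. Leaving out 1 library gave 33 to 60 above, with 60 without cell library 3. Without that library more classes held enough barcodes, so the 60 are not out of the same 48 pairs. Without the removed members and genes the male counts were 23 and 1 of 36, against 28.1% above, and the female share of all genes was 36.8%. Male podocyte cells held no UMI of Tfap2b or Gata3, and such a pair carries no weight if counted as above. Without thinning 61 of 80 male pairs were above, with the removed members included. Over all genes 39.3% of male pairs were above and 8.82% below, and the female shares of all genes were 40.6% and 22.6%. Pax2, Pax8 and Hnf4g were above in 11 of 11 female classes, of which 4 held no UMI of Hnf4g in cells, and Esrrb in 10. Cells also held no UMI of Esrrb in endothelium, podocytes and mesangial and mural cells. The same held for Tfap2b in mesangial and mural cells and for Gata3 in podocytes. Any such pair counted as above carries no weight. Tfap2b was above in 9 and below in 1, Gata3 above in 6 and below in 1, Maf above in 4 and below in 4, and Hnf4a above in 2 and below in 3. Barcodes under 500 UMIs were left out, which kept 9756 of 9756 female proximal tubule nuclei and 7580 of 9143 cells, but 2216 of 4925 male proximal tubule cells.

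Hnf4g was detected in 13.6, 12.3 and 12.9% of female proximal tubule nuclei and in 1.03, 1.29 and 0.70% of cells. Hnf4g was also found in 3.09, 2.48 and 2.65% of endothelial and 6.01, 4.32 and 5.69% of macrophage nuclei. Hnf4a was found in 14.0, 13.2 and 12.9% of proximal tubule nuclei and 11.4, 12.7 and 14.1% of proximal tubule cells, so that in this class the paralogs were detected about as often in nuclei and far apart in cells. Esrrb was detected in 21.4, 15.6 and 18.7% of thick ascending limb nuclei and 2.82, 3.60 and 4.39% of cells. Among classes not known for it, Esrrb ranged from 0.235, 0.270 and 0.124% of principal nuclei to 6.28, 2.49 and 1.61% of macrophage nuclei. Of classes not known for the paired-box factors, endothelial nuclei held Pax2 in 2.52, 1.70 and 1.76% and Pax8 in 2.09, 1.19 and 1.70%, and macrophage nuclei held Pax2 in 7.195, 3.34 and 6.90% and Pax8 in 6.86, 5.24 and 6.90%. The macrophage shares of both genes lay below those of proximal tubule nuclei, whereas the level of Pax2 was 181.5 CPM in macrophage and 165.7 CPM in proximal tubule nuclei, over the summed libraries. Pax2 was detected in 22.0, 20.4 and 22.1% of principal nuclei and 6.77, 6.44 and 9.91% of cells, and Pax8 in 13.4, 11.9 and 13.1% of proximal tubule nuclei and 2.604, 2.75 and 2.89% of cells. Maf went the other way in proximal tubule, at 15.7, 13.5 and 15.1% of nuclei and 18.5, 19.03 and 20.7% of cells. Tfap2b in thick ascending limb rose only from 14.6, 13.6 and 15.2% to 16.8, 19.4 and 18.9%, and Gata3 in principal cells from 11.8, 10.5 and 10.3% to 15.3, 13.7 and 14.7%.

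**Figure D3:**
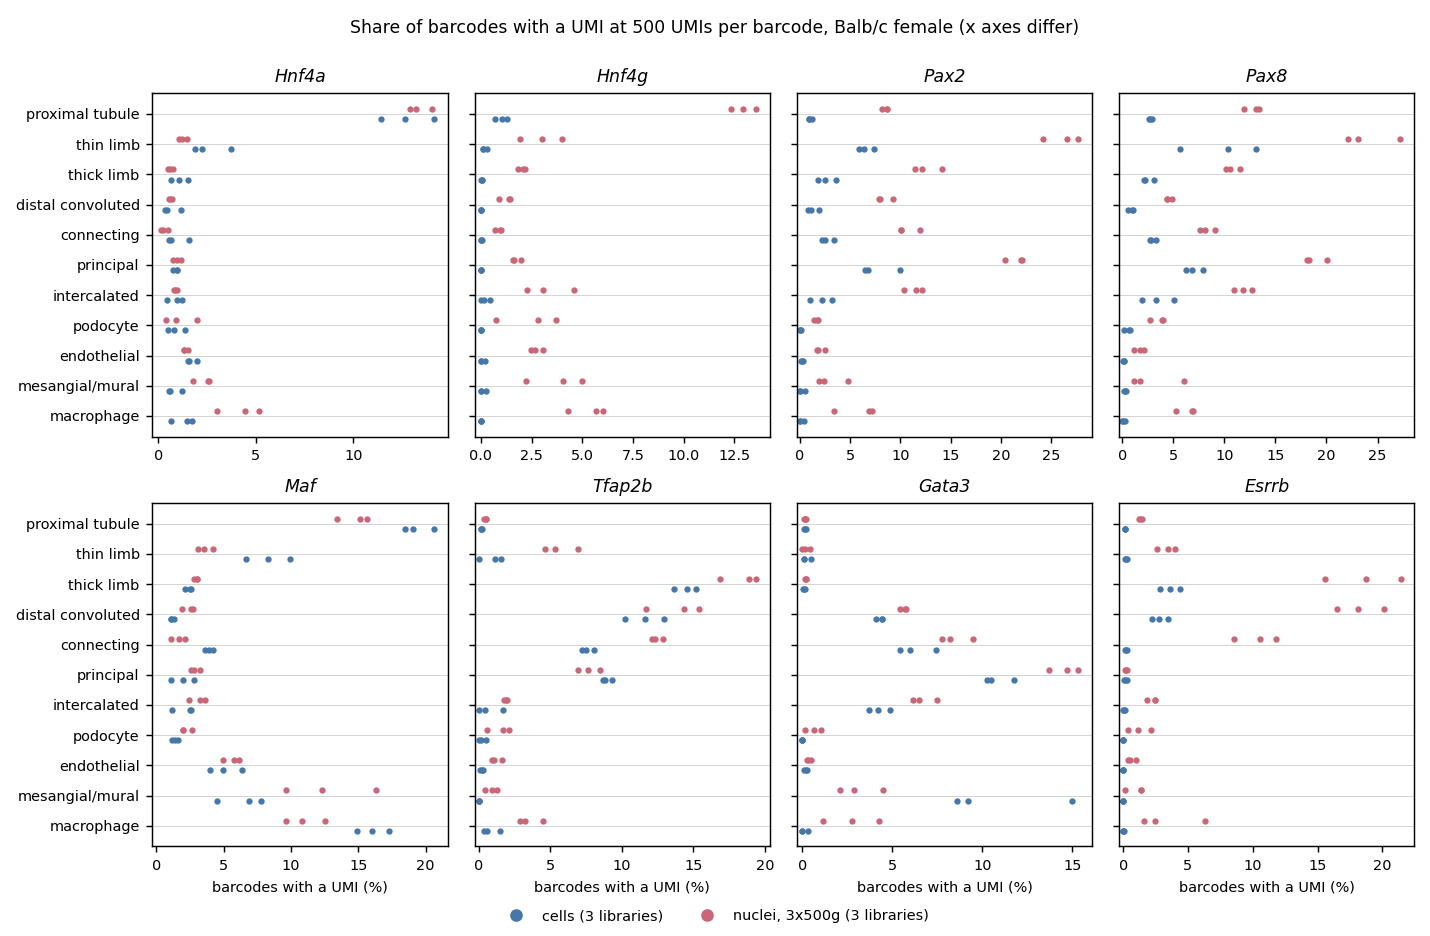
Percent of barcodes expected to hold a UMI at 500 UMIs per barcode (x axes differ between panels), by class, in Balb/c female cells (blue) and 3x500g nuclei (red); each point is 1 of 3 libraries. In the proximal tubule Hnf4g nuclei sit at 12.3 to 13.6% and cells at 0.70 to 1.29%, whereas Hnf4a nuclei and cells overlap.

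Across all genes with a UMI in every library the change in proximal tubule nuclei followed gene span: the median log2 fold change ran from -2.27 for genes under 3 kb to 2.54 for genes over 120 kb in females, and from -1.66 to 2.29 in males. Against genes of like span, Pax2 stood above 86.5% (female) and 97.2% (male) of its bin and Pax8 above 91.0% and 97.4%. Hnf4a, whose 66.1 kb falls in the 60 to 120 kb bin with a median of 1.41 in females, stood above only 14.6% and 10.7% of the bin, and Maf above 35.4% and 40.4% of the 10 to 30 kb bin. Hnf4g in females stood above 88.7% of the genes over 120 kb and Esrrb above 49.8%. In the thick ascending limb, where Esrrb is high, these were 85.3% and 71.1%. These are descriptions over genes, which are not replicates.

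**Figure D4:**
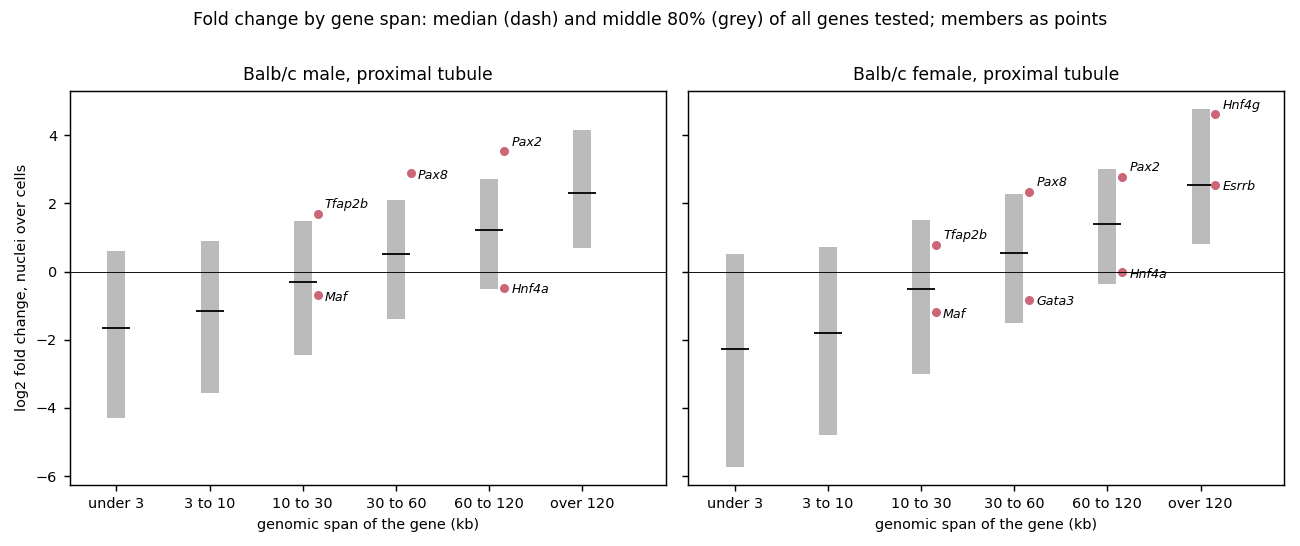
Log2 fold change of nuclei over cells in proximal tubule (y axis) by genomic span of the gene in kb (x axis), male left and female right; dashes are medians and grey bars the middle 80% of all genes with a UMI in every library, and points are members. Medians rise with span, and Hnf4a lies near the lower end of its bin in both sexes with TMM scaling (female -0.03, and 0.73 on total UMIs).

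Other nephron factors were taken from 6 fixed lists of 47 genes. In females 221 of their pairs with a class were tested, of which 137 were higher and 50 lower in nuclei with a median log2 fold change of 1.26, beside 41.9%, 39.1% and 0.12 over all genes. Of these female pairs 6 had no UMI in cells and carry no weight, 4 of them loop of Henle and distal factors and 2 endothelial, stromal and leukocyte factors. In males 143 were tested, of which 87 were higher and 23 lower with a median of 1.38 using bounds, beside 44.1%, 30.0% and 0.54 over all genes. Of the male pairs, 14 had no UMI in cells and 3 none in nuclei, and such calls carry no weight. With genes the study removed from a library left out, 71 were higher and 20 lower of 120 male pairs, with a median of 1.20. Over all genes kept in every library 38.4% were higher and 33.1% lower. Among the female lists, proximal tubule factors gave 33 higher and 6 lower of 49 pairs (median 1.08), loop of Henle and distal factors 24 and 15 of 44 (2.09), and connecting tubule and collecting duct factors 45 and 9 of 66 (1.61). Whole nephron factors gave 18 and 1 of 25 (1.57) and endothelial, stromal and leukocyte factors 14 and 4 of 19 (2.20). Glomerular factors went the other way, with 3 higher and 15 lower of 18 (-1.92). Esrrg, a receptor of the same family as Esrrb, rose in 11 of 11 female and 10 of 10 male classes tested, and Mecom and Sim1 rose in 11 and 11 female and in 9 and 8 male classes. The mineralocorticoid receptor gene Nr3c2 rose in 11 female classes. Rxra, a partner of many nuclear receptors, fell in 5 of 6 female classes tested, Pou3f3 in 5 of 7 and Gata2 in 4 of 5, and Pou3f3 in 5 of 6 and Ehf in 3 of 3 male classes. Irf8 and Foxc2 were called lower in 1 male class each, where the study's filter had removed them from all 3 nuclei libraries.

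Nuclei protocols were compared within females. Against 3 washes at 500 g, the single wash at 2000 g gave 1 member pair higher and 20 lower of 84 tested, against 9.68% and 4.88% of all genes, and sucrose gave 1 higher and 28 lower of 80, against 10.8% and 8.72%. Leaving out 1 library gave 12 to 22 lower at 2000 g, with 12 without 500 g library 1 or 3 or 2000 g library 3. The largest part of the first was Hnf4g, lower in 7 of 11 classes, and of the second Pax2, lower in 9 of 11. In endothelium Hnf4g went from 53.6, 42.8 and 44.3 CPM to 8.19, 13.7 and 15.1 CPM at 2000 g (-1.86 ± 0.22, edgeR adjusted p = 1.2e-05) and 17.2, 15.7 and 14.0 CPM on sucrose. Endothelial proximal tubule markers moved the other way at 2000 g, to 4749 to 6327 CPM. In the proximal tubule itself Hnf4g held 654, 723 and 788 CPM, 563, 611 and 638 CPM and 425, 437 and 508 CPM in the 3 protocols, with only sucrose called lower (-0.67, edgeR adjusted p = 0.002). Tfap2b in thin limb was the only pair called higher, by 0.93 (edgeR adjusted p = 0.013) and 1.26 (edgeR adjusted p = 0.0036), the first lost without 2000 g library 2 or 3, and no Gata3 pair was called in either comparison.

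Dissociation was compared in fresh and storage in cold-dissociated C57BL/6J cells, where few pairs passed the filter; warm-dissociated stored cells were not tested here. Warm against cold dissociation gave 1 pair higher and 2 lower of 18, all in proximal tubule, against 2.39% and 1.76% of all genes. A replicate block by library number gave 1 higher and 1 lower, but warm and cold libraries come from separate dissociations and share no suspension. Pax8 rose from 23.7, 26.4 and 22.3 CPM to 41.5, 38.2 and 39.6 CPM (0.78 ± 0.14, edgeR adjusted p = 0.014). Hnf4a fell by 0.44 (SE 0.11, edgeR adjusted p = 0.037, and 0.063 with the replicate block) from 218, 238 and 256 CPM to 183, 160.2 and 159 CPM. Maf fell by 0.46 (SE 0.10, edgeR adjusted p = 0.023). The groups did not overlap for any of these, but each call was lost when single libraries were left out, as detailed in the closing section. Cryopreserved libraries held 0 to 8 proximal tubule barcodes, so that class was not tested. Of 15 pairs 1 was higher and 2 lower, against 3.41% and 3.22%. Members removed from no library made up 56 of 112 pairs of a member and a class, and 14 of the pairs tested. Gata3, a T helper cell factor, rose in T cells from 111, 73.9 and 56.98 CPM to 134, 151 and 188 CPM (1.18 ± 0.35, edgeR adjusted p = 0.037). Maf fell in macrophages from 149.6, 172 and 207 CPM to 84.8, 82.3 and 114 CPM (edgeR adjusted p = 0.028) and in endothelium (edgeR adjusted p = 0.015). All 3 calls were lost with DESeq2 and on leaving out single libraries, as detailed in the closing section.

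Methanol fixation of cold-dissociated cells gave 8 lower and 0 higher of 17 pairs, against 10.4% and 9.58% of all genes, and 7 lower of 16 without Hnf4g, which carries no weight as it was at 0 in all 3 methanol libraries. DESeq2 left 3 lower, and leaving out 1 library gave 3 to 8, with 3 without fresh library 2 or methanol library 3. Calls were lost in 7 alternatives for Maf in macrophages, and in 5 for Tfap2b and 4 for Pax2 in principal cells. Maf in proximal tubule fell from 679, 781 and 791 CPM to 283, 291 and 315 CPM (-1.28 ± 0.10, edgeR adjusted p = 2.1e-05). Tfap2b fell in thick ascending limb, from 250.2, 251 and 150.0 CPM to 167, 103 and 43.9 CPM (-1.33, edgeR adjusted p = 0.011), and in distal convoluted tubule and principal cells (-1.24 in both). Gata3 in principal cells fell from 322, 215 and 239.6 CPM to 95.1, 97.9 and 171 CPM (-1.25, edgeR adjusted p = 0.0055), and Pax2 there fell by 1.63 (edgeR adjusted p = 0.045, and 0.054 with the replicate block). With 9 UMIs of Hnf4g set in each methanol library, in place of the removed values, the change in proximal tubule was -1.40. Set values have no spread between libraries, so this gives no test of a fall. Hnf4a in proximal tubule, at 180.1, 181 and 205 CPM against 218, 238 and 256 CPM, was below in every library without passing the unpaired test (-0.26, edgeR adjusted p = 0.10). That test ignores the shared suspensions, and the value of Hnf4a with the replicate block is not given here.

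In bulk RNA, where fewer cells of a type and less RNA per cell cannot be told apart, all 8 factors were found in all 15 libraries. Per kilobase of exon, Hnf4a was highest at 168 to 261 CPM per kb over all libraries, Maf followed at 40.3 to 89.6, and Pax8 at 12.5 to 27.2. Tfap2b at 5.69 to 16.8, Pax2 at 5.99 to 16.05, Esrrb at 4.41 to 14.3, Gata3 at 2.87 to 11.9 and Hnf4g at 2.17 to 5.82 CPM per kb overlapped in range. Hnf4g, which stood above Hnf4a in proximal tubule nuclei, was thus far below it in whole-kidney RNA, as in cells. In warm C57BL/6J suspensions 4 members were higher and 1 lower than in cold ones, against 5.42% and 3.26% of all genes. Pax8 rose from 83.7, 75.7 and 83.5 to 105, 113 and 113 CPM (0.42 ± 0.07, edgeR adjusted p = 0.0041). Tfap2b rose from 53.8, 52.9 and 36.0 to 72.0, 75.0 and 83.2 (0.66 ± 0.12, edgeR adjusted p = 0.0048), Esrrb rose by 0.52 ± 0.10 (edgeR adjusted p = 0.0061) and Gata3 by 0.78 ± 0.21 (edgeR adjusted p = 0.035). The Gata3 call was lost without cold or warm library 1 or 3 (edgeR adjusted p = 0.089 to 0.13). Maf fell from 394, 402 and 423 to 343, 333 and 334 CPM (-0.30 ± 0.07, edgeR adjusted p = 0.015), a call lost without any 1 of the warm libraries (edgeR adjusted p = 0.051 to 0.062). Pax8 and Maf moved in the same direction in warm proximal tubule cells. Intact female kidney against cold suspensions gave 2 lower and 0 higher members, against 7.91% and 12.1% of all genes. Maf fell by 0.43 (SE 0.06, edgeR adjusted p = 0.00089) and Gata3 by 0.63 (SE 0.10, edgeR adjusted p = 0.0021), from 47.4, 41.2 and 36.9 to 24.4, 25.7 and 30.4 CPM.

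**Figure D5:**
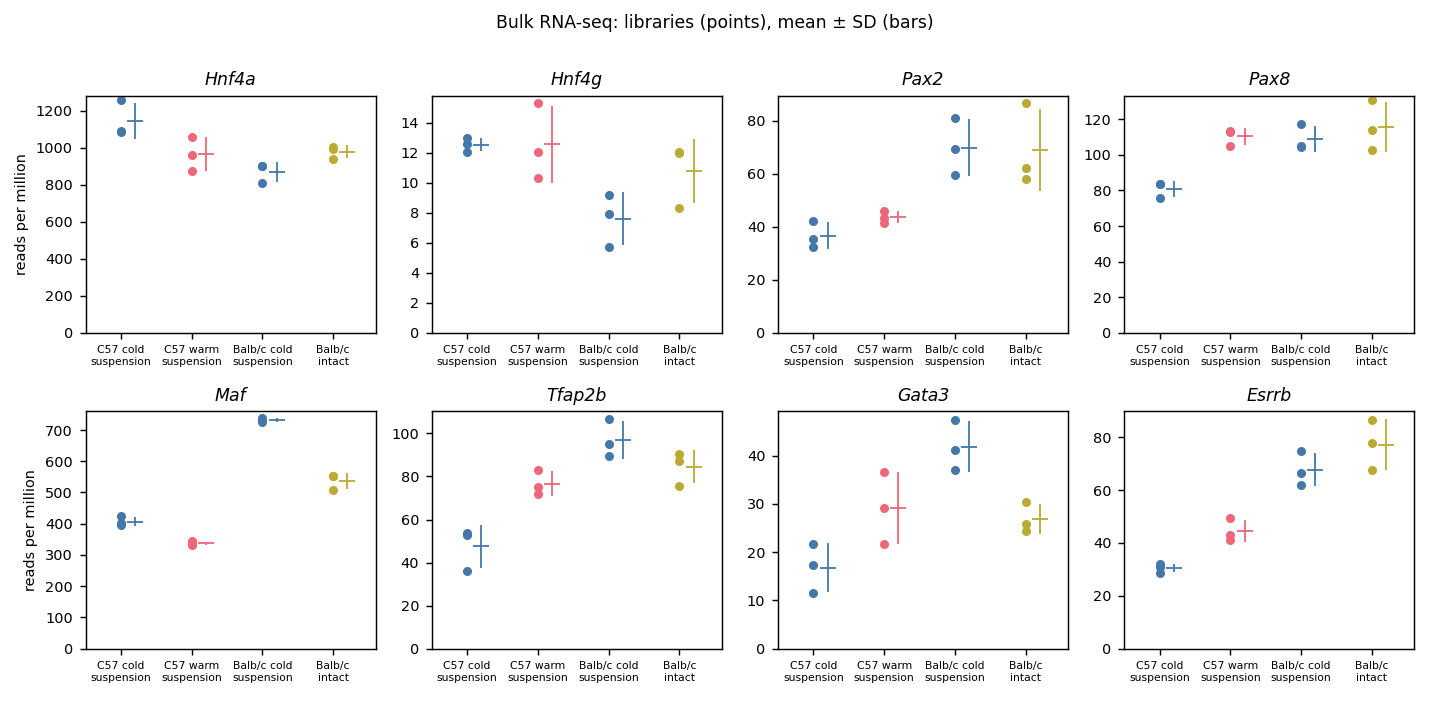
CPM of each member in bulk RNA of cold and warm C57BL/6J suspensions and of cold suspensions and intact kidney of Balb/c females; points are libraries and bars mean ± SD of 3. Pax8, Tfap2b and Esrrb lie higher in warm than in cold C57BL/6J suspensions without overlap, and Maf lies lower in intact kidney than in the suspension.

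Genes most like each member were ranked by Pearson's r of log2(CPM + 1) over 13 classes of the female nuclei, each the mean of 9 libraries, among 13563 genes. The classes share libraries and the r describes only how levels vary together. The closest were Slc34a1 (r = 0.99), the phosphate transporter of the proximal tubule, for Hnf4a, Abcc6 (0.97) for Hnf4g, Chdh (0.95) for Pax8, Bmp6 (0.96) for Maf, Cacnb4 (0.96) for Tfap2b and Ppp1r1a (0.94) for Esrrb. For Pax2 and Gata3 they were the overlapping antisense genes Gm20395 (0.96) and Gm13256 (1.00), whose reads may not be separable from theirs.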

How the data were processed

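Single-cell and single-nucleus libraries were made with 10x Chromium (chemistry version 2 or 3) and bulk libraries from suspensions or whole kidney. All values used are deposited whole-number counts. The authors processed the 10x reads with Cell Ranger 2.1.1 on mm10 (exons for cells, exons and introns for nuclei), called barcodes with EmptyDrops, removed genes found in fewer than 10 barcodes of a library, and counted bulk reads with STAR 2.6.1a and featureCounts on GRCm38.

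From these counts barcodes were clustered (Leiden resolution 2, 2000 variable genes, 30 components, leidenalg 0.10.2; members excluded), and clusters named from marker lists by at least 3 markers; rules for doublets, scores and naming were set after the clusters were seen. UMIs were summed per library and class (at least 10 barcodes in at least 2 libraries of each group) and tested with edgeR 4.0.16 in R 4.3.3 (TMM, filterByExpr, quasi-likelihood, Benjamini-Hochberg within class, adjusted p threshold 0.05). DESeq2 1.42.0, other size factors, no filter, resolution 1, doublet removal, other treatments of removed genes and leaving out each library were the alternatives. Likeness used a pseudocount of 1 CPM. On simulated data the female test recovered 99.0% of changes of 2 and 87% of changes of 1 (log2) among 12211 proximal tubule genes. The male test recovered 93.9% and 64.9% among 11446 genes, and the interaction test 39.5% of changes of 1 among 11927. False calls made up 3.14% (male nuclei against cells) to 7.33% (warm against cold cells) of calls, with 6.09% in females. Only a small part of the genes was changed in the simulation, unlike the real nuclei comparisons, so these rates need not carry over. In the C57BL/6J 10x libraries the barcode prefixes name a suspension shared by fresh and stored libraries, and deviations of these pairs correlated at 0.038 to 0.168 (cryopreserved and fresh) and 0.319 to 0.489 (methanol and fresh). Warm and cold libraries come from separate dissociations. Their same-numbered pairs correlated at -0.143 to 0.245, against -0.344 to 0.325 for other numbers. The labels pair no other samples, and p-values measure the spread between 3 libraries per group. Intervals cover counting error only. The members and lists were chosen with earlier results of these data known. Named genes were the members, up to 4 listed factors per direction called in most classes of each nuclei comparison, and the closest genes in pattern. Results for some listed factors are not reported here.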

Additional observations from a re-analysis of the deposited data

Results flagged for a closer look

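The change from cells to nuclei differed between male and female Balb/c kidney in 15 of 68 pairs of a member and a class tested, by an interaction term in edgeR, against 21.3% of all genes, so that the count is near the background; sex, age and chemistry cannot be told apart in this contrast. Values are the male minus the female log2 fold change. Maf differed by 2.56 in principal cells (edgeR adjusted p = 0.00055), 2.85 in connecting tubule (edgeR adjusted p = 6.1e-05), 2.15 in endothelium (edgeR adjusted p = 0.00039), 2.14 in intercalated cells (edgeR adjusted p = 0.0021), 1.71 in thick ascending limb (edgeR adjusted p = 0.03) and 0.57 in proximal tubule (edgeR adjusted p = 0.015). Hnf4a differed by 3.89 in connecting tubule (edgeR adjusted p = 0.00018), 3.61 in endothelium (edgeR adjusted p = 0.00013), 2.32 in thick ascending limb (edgeR adjusted p = 0.039) and -0.38 in proximal tubule (edgeR adjusted p = 0.047). The called differences of both genes outside the proximal tubule were higher in males. In distal convoluted tubule neither was called (-0.61 for Hnf4a and -0.26 for Maf). The summed level of the 14 proximal tubule markers was above that of cells in male nuclei of connecting tubule (5530 to 7837 against 2156 to 4012 CPM) and intercalated cells (4575 to 5769 against 1063 to 2751 CPM). In thick ascending limb the ranges overlapped (4312 to 6903 against 2680 to 5099 CPM). Their part in the differences was not tested.

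Gata3 differed by -0.97 in intercalated cells (edgeR adjusted p = 0.015), where male nuclei held 94.1, 138 and 112 CPM against 170.4, 151 and 176 CPM in cells, and by 3.75 in thin limb (edgeR adjusted p = 0.024). The thin limb held few Gata3 UMIs: 16 in male nuclei, 7 in male cells, 6 in female nuclei and 17 in female cells. That pair did not pass the filter on low counts within either sex. In proximal tubule Pax2 differed by 0.80 (edgeR adjusted p = 0.019), Pax8 by 0.60 (edgeR adjusted p = 0.035) and Hnf4g by 1.62 (edgeR adjusted p = 0.033), the last with 2 male cell libraries from which it had been removed. The calls of Hnf4a were lost in 6 alternatives in thick ascending limb and in 5 in proximal tubule, those of Maf in 4 and 6 in the same classes, that of Gata3 in thin limb in 6, and those of Hnf4g, Pax2 and Pax8 in proximal tubule in 13, 10 and 11. The difference for Hnf4a in thick ascending limb was 1.47 without male cells 2 (edgeR adjusted p = 0.28) and 4.42 without male cells 3 (edgeR adjusted p = 0.0028). With RLE or total UMI scaling the proximal tubule differences of Hnf4g, Pax2, Pax8 and Maf no longer passed the test, nor did that of Gata3 in thin limb with RLE.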

How the results depend on the processing

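Over 2311 alternative values for single called pairs, 2030 kept direction and side of the threshold, 270 lost the call and 11 reversed. The reversed ones were male Esrrb in proximal tubule (-0.18) and male Hnf4g in thick ascending limb (-0.14) with removed members set to 9 UMIs, female Tfap2b in principal cells (0.0057), female Maf in podocytes (-1.51) and Hnf4g in principal nuclei on sucrose (0.12) at resolution 1, female Maf in macrophages on total UMIs (0.40) and in thick ascending limb without doublets (0.32), and the sex differences of Pax8 (-0.072 to 0.72 without single libraries, with -0.072 without male nuclei 3 and -0.038 without female nuclei 2) and Maf (-0.047 to 0.65, with -0.042 without male nuclei 2 and -0.047 without female nuclei 2) in proximal tubule; the cause was not tested. Setting removed members to 9 UMIs left Hnf4g called in male proximal tubule, endothelium and intercalated cells, but these calls rest partly on set values without spread between libraries.

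Counts of calls moved as follows. On total UMIs, lower calls were 0 in males and 5 in females, without a share of all genes on that scaling to set beside them. With 9 UMIs, calls were 11 higher in cryopreserved cells, 1 higher in methanol and 33 sex differences, by construction. DESeq2 gave 0 higher and 0 lower in cryopreserved cells, 3 lower in methanol and 2 higher in intact kidney. Without a filter, 5 were lower in cryopreserved cells and 2 in warm bulk. Without doublets 1 was lower in cryopreserved cells. A fold threshold of 2 (log2) left 0 in both directions of warm bulk and 0 lower in intact kidney. Male detection gave 5 of 8 pairs at 1000 UMIs, 61 of 80 without thinning and 23 of 36 without removed members.

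With the replicate block, calls were 1 higher and 1 lower in warm, 1 and 2 in cryopreserved and 0 and 9 in methanol cells. It pairs stored with fresh libraries by suspension, but warm with cold libraries by number only. The block changed no other count by over 1.5 times. For the other groups the numbers follow accession order; same-numbered female 1x2000g and 3x500g nuclei correlated at 0.486 to 0.783 and female intact and suspension bulk libraries at 0.404 to 0.593, each best with its own number, a hint from the data only; no blocked fit was made there.

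Leaving out 1 library gave 31 to 42 higher and 2 to 3 lower pairs in males, 48 to 54 and 5 to 10 in females (5 without cells 2), 0 to 1 and 12 to 22 at 2000 g (higher lost without 2000 g libraries 2 or 3; 12 lower without 500 g libraries 1 or 3 or 2000 g library 3), and 1 and 19 to 33 on sucrose. In warm cells calls were 0 to 1 and 0 to 2, all lost without cold 2, cold 3, warm 1 or warm 3, and 1 lower without warm 2. In cryopreserved cells they were 0 to 1 and 0 to 2 (higher lost without fresh 2 or 3 or cryopreserved 2 or 3, lower without fresh 2 or 3 or cryopreserved 1 or 2, and 1 without cryopreserved 3; Maf in endothelium had no value without fresh 2 or 3 or cryopreserved 2). In methanol they were 0 and 3 to 8 (3 without fresh 2 or methanol 3, 5 without methanol 2). Bulk gave 3 to 4 and 0 to 1 in warm (0 lower without any warm library) and 0 to 2 and 2 in intact kidney (2 higher without intact 3). Sex differences numbered 8 to 13 (9, 9, 8 and 9 without male cells 2, male nuclei 1, male nuclei 3 or female nuclei 2), and detection 33 to 60 in males (60 without cells 3, over more classes) and 65 to 67 in females.

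Depth limits the male cells most: 2216 of 4925 proximal tubule barcodes reached 500 UMIs.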
